A study of Mus musculus with 4 samples.

Results

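The colony-stimulating factors are secreted proteins that direct the production, survival and recruitment of myeloid cells. The 8 genes described here encode 4 of these ligands (Csf1, Il34, Csf2 and Csf3) and 4 chains of their receptors (Csf1r, Csf2ra, Csf2rb and Csf3r). They were taken by name from an expression table of 34685 gene identifiers, with symbols matched through GENCODE M21. They were chosen on their FPKM values across the 4 lines of this same table, so all levels and differences of these genes are a description, without a test.

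The table holds RNA sequencing values of 4 mouse oral cancer cell lines, with 1 library per line. All 4 lines came from male C57BL/6 mice whose buccal mucosa had been painted with 7,12-dimethylbenzanthracene (DMBA), a carcinogen that forms DNA adducts. AOC3 and AOC11 were grown from the primary oral tumor of a mouse each, and AOC3-LN and AOC11-LN from the tumor in the draining cervical lymph node of the same mouse. The cells had been passaged under the skin of C57BL/6 mice, fibroblasts had been removed with an isolation kit, and the cells were cultured before RNA was taken, so the values describe cultured tumor cells and not tumors with their host cells. Since each mouse gave 1 line per site, a difference between lines cannot be told apart from a difference between mice, cultures or libraries.

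CSF1 (macrophage colony-stimulating factor) and IL-34 are unrelated in sequence but share 1 receptor, the tyrosine kinase CSF1R, which macrophages need to survive. CSF2 (granulocyte-macrophage colony-stimulating factor) binds a specific alpha chain, encoded by Csf2ra, and signals only together with the common beta chain encoded by Csf2rb. CSF3 (granulocyte colony-stimulating factor) drives the formation and release of neutrophils through CSF3R. Carcinoma cells are known as a source of these factors, and the receptors are mainly carried by myeloid cells. In skin and oral epithelium, IL-34 is made by keratinocytes and maintains Langerhans cells.

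The ligand genes carry sequence features that are known to act on their transcription and on the stability of their mRNA. Csf2 and Csf3 are textbook examples of short-lived cytokine mRNAs with AU-rich elements in the 3′ untranslated region, the sites at which proteins such as tristetraprolin (Zfp36) bring about decay. The windows of 30 bases richest in ATTTA in each ligand mRNA are shown here because they show how the 4 ligands differ in this feature. They are read 5′ to 3′ on the mRNA strand from the longest 3′ untranslated region among the GENCODE M21 transcripts of each gene, with each ATTTA in capitals.
Csf2: tttttaaatATTTATTTATTTATTTATTTA
Csf3: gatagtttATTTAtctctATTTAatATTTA
Csf1: tttatataaggtcATTTAaatatctATTTA
Il34: tggttcctttttctattaaatggccATTTA

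The Csf2 window covers bases 230 to 259 of a 317-base untranslated region, and 5 ATTTA copies run through it in overlap. The whole region held 9 copies, or 28.4 per kilobase, and 4 copies of the nonamer TTATTTATT. The Csf3 region of 669 bases held 6 copies, or 8.97 per kilobase, with no nonamer, and its window covers bases 24 to 53. The Csf1 region of 2111 bases held 4 copies (1.89 per kilobase, window at bases 2021 to 2050), and the Il34 region of 605 bases held 1 copy (1.65 per kilobase, window at bases 571 to 600). Among 10896 expressed genes with an untranslated region of at least 100 bases, the median was 1.37 per kilobase, and 8.63% held a nonamer. The densities of Csf2 and Csf3 thus lay above 99.1% of these genes or more, whereas Csf1 and Il34 lay at percentiles 61.4 and 56.5. By number of copies, which is not scaled to length, Csf2 and Csf3 lay at percentiles 91.0 and 81.7. Csf1 and Il34 lay at 69.2 and 28.2 by this measure. Among the receptor genes, the untranslated region of Csf1r held 3 copies in 1669 bases and that of Csf2ra held 0 in 602 bases. These letters are a description of the transcripts and not a measure of decay.

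The sequence before the Csf1 start is shown because Csf1 was the most abundant of the 8 transcripts in 3 of the 4 lines and was lower in both lymph node lines. It covers the 250 bases before the transcription start in the RefSeq annotation of the GRCm38.p6 assembly, chr3:107760470-107760719, minus strand. The capitals mark GGAAAGTCC, which is the kappa B core GGACTTTCC read on the other strand, and GGGCGG, the core of a GC box bound by Sp1.
Csf1 promoter: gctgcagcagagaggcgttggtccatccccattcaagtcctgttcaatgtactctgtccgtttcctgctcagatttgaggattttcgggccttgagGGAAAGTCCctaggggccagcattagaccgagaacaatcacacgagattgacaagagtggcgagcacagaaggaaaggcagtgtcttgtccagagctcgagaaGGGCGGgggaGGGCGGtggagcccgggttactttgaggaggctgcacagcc

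The kappa B letters lie 154 to 146 bases before the start, and the GGGCGG copies lie 51 to 46 and 41 to 36 bases before it, with no overlap between them. Searched on both strands, GGACTTTCC was held by 113 of 32851 mouse promoter windows of RefSeq (0.344%), and GGGCGG by 35.7%. TATAAA (13.6% of windows) and TGACTCA (5.2%) were also searched on both strands, and their letters are not in the 250 bases shown. The shares are over whole windows, whereas the Csf1 window extends beyond the 250 bases that were searched, so the lengths are unlike. The share of GGACTTTCC is for these exact letters, and variants of the kappa B core were not searched. Among the genes described here, only the Csf1 promoter was described in this way. The letters are no measure of binding, and a link to the level of Csf1 was not tested.

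Levels are given as FPKM, the number of sequenced fragments of a gene scaled to its transcript length and to the size of the library, so levels of different genes can be set side by side. The table gives no counts. The spacing of low FPKM values gave estimates of between about 28262385 (AOC3-LN) and 33821309 (AOC11) fragments per library. Differences are given on the log2(FPKM + 1) scale after quantile normalization, and a gene was called where the lines differed by more than 2-fold on that scale. Where a fold of FPKM values is given, its 95% interval (exact binomial, from the estimated fragments) covers counting error only. The SD given beside a mean is over the 4 lines and is not a replicate error.

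The order of the levels was led by Csf1 and Csf3. On the log2 scale, mean levels over the lines were 6.81 ± 0.99 (SD, n = 4 lines) for Csf1, 6.32 ± 1.15 for Csf3, 4.98 ± 0.76 for Il34, 2.81 ± 1.36 for Csf2, 2.17 ± 1.76 for Csf1r and 2.06 ± 0.54 for Csf2ra. The means of Csf1 and Csf3, of Csf2 and Csf1r and of Csf1r and Csf2ra lay closer together than their SDs over the lines. The order of these neighbours by mean is therefore not firm, and it could change between lines. Csf1r and Csf2ra stood at 20.8 and 1.49 FPKM in AOC11, and at 0.435 and 4.66 in AOC3-LN. Csf2rb and Csf3r were at or near 0 in all 4 lines. The lines carried all 4 ligand transcripts, the CSF1 and IL-34 receptor in unequal amounts, and the alpha chain of the CSF2 receptor, while the beta chain and the CSF3 receptor were not detectable above 3 fragments.

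**Figure D1:**
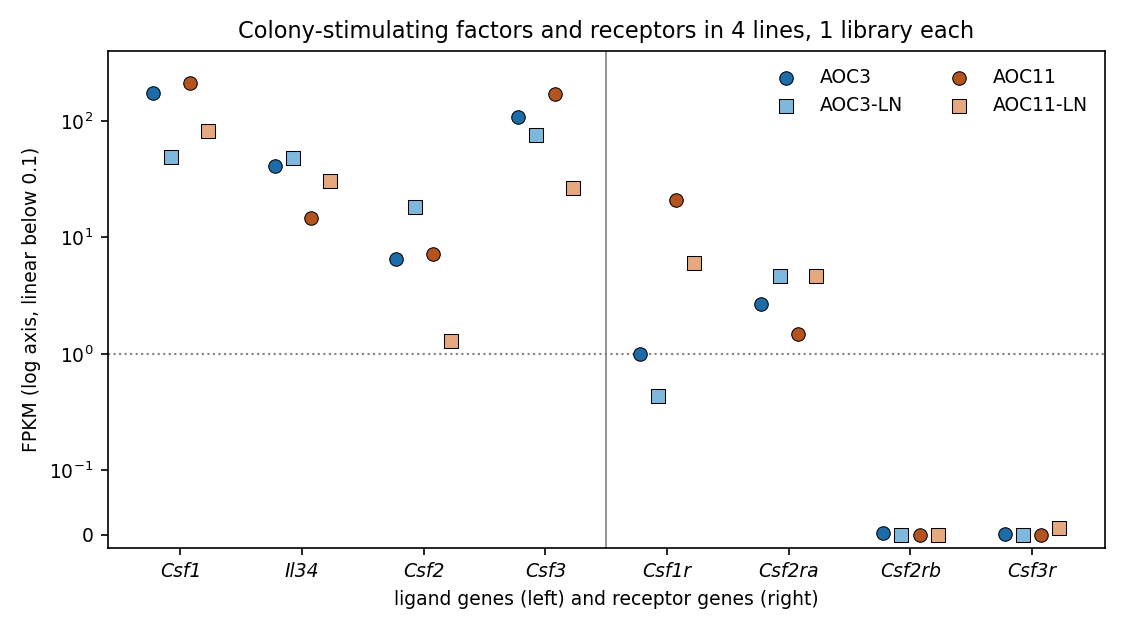
FPKM of the 4 ligand genes (left of the vertical line) and the 4 receptor genes (right) in each line, with 1 point per library, on a log axis that is linear below 0.1; circles are primary lines, squares are lymph node lines, and the dotted line marks 1 FPKM. Csf1 and Csf3 were highest in AOC11, Csf1r spread from 0.435 to 20.8 FPKM, and Csf2rb and Csf3r lay at the bottom of the axis in all 4 lines.

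Csf1 (ENSMUSG00000014599.10, mm10 chr3:107741048-107760469, minus strand) was measured at 174 FPKM in AOC3 against 48.7 in AOC3-LN, and 211 in AOC11 against 81.5 in AOC11-LN. Both primary lines were above both lymph node lines. Csf1 ranked at percentile 97.4 of protein-coding genes in AOC3 and 97.9 in AOC11, and at 89.8 in AOC3-LN and 93.7 in AOC11-LN. Within the mouse, its FPKM was 3.58-fold lower in AOC3-LN than in AOC3 (95% interval 3.48 to 3.69) and 2.59-fold lower in AOC11-LN than in AOC11 (2.53 to 2.65), with log2 differences of -1.84 and -1.43. The primary lines differed by -0.26 (AOC3 minus AOC11) and the lymph node lines by -0.67 (AOC3-LN minus AOC11-LN), both short of the 2-fold threshold. Among 14165 genes kept, Csf1 had the 161st lowest difference in the first mouse and the 185th lowest in the second.

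Il34 (ENSMUSG00000031750.15, chr8:110741829-110805924, minus strand), the alternative ligand of CSF1R, stood at 41.2 FPKM in AOC3 against 48.1 in AOC3-LN, and 14.7 in AOC11 against 30.2 in AOC11-LN. AOC11 was the lowest line, and both AOC3 lines were above both AOC11 lines. The log2 difference between AOC3-LN and AOC3 was 0.22, and that between AOC11-LN and AOC11 was 1.02, just past the threshold, with an FPKM ratio of 2.06 (95% interval 1.89 to 2.25) that includes values under 2. This call was lost without quantile normalization (0.996) and with a common median (0.984). AOC3 exceeded AOC11 by 1.49 on the log2 scale, or 2.81-fold in FPKM (2.59 to 3.05). An antisense transcript that overlaps Il34 by 287 bases, Gm15895, was listed at 2.04, 2.08, 0.379 and 2.81 FPKM in AOC3, AOC3-LN, AOC11 and AOC11-LN. The library kit marks strand, but the counting is not stated to use it, so reads from the shared bases cannot be told apart.

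The balance of both CSF1R ligands differed between the primary line and the lymph node line of each mouse, with 1 library per line. Csf1 exceeded Il34 by 4.23-fold in AOC3 and 14.4-fold in AOC11, whereas the ratio was 1.01 in AOC3-LN and 2.69 in AOC11-LN. Il34 made up 19.1% of the summed FPKM of Csf1 and Il34 in AOC3 against 49.7% in AOC3-LN, and 6.504% in AOC11 against 27.1% in AOC11-LN. The sum itself was 216 FPKM in AOC3 and 225 in AOC11, against 96.8 in AOC3-LN and 112 in AOC11-LN.

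Csf2 (ENSMUSG00000018916.5, chr11:54247271-54249667, minus strand) was the lowest of the ligands in each line and the one that spread most. It stood at 6.48 FPKM in AOC3 against 18.4 in AOC3-LN, and 7.26 in AOC11 against 1.30 in AOC11-LN, a 14.1-fold span that rested on about 138, 335, 150 and 27 estimated fragments. The primary lines did not differ beyond counting error (FPKM ratio 0.892, 95% interval 0.704 to 1.13), and the lymph node lines lay at opposite ends. AOC3-LN was 2.84-fold above AOC3 (2.32 to 3.49), a log2 difference of 1.46. AOC11-LN was 5.59-fold below AOC11 (3.68 to 8.73), a log2 difference of -2.01. Between the lymph node lines the log2 difference was 3.31, or 14.1-fold in FPKM (9.55 to 21.8), the 72nd highest of 14165 genes. The antisense gene Gm12223, which shares 2068 bases with Csf2, was listed at 0.163 FPKM in AOC3, 0.0947 in AOC3-LN and 0 in both AOC11 lines.

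Csf3 (ENSMUSG00000038067.2, chr11:98701263-98703629, plus strand) was measured at 109 FPKM in AOC3 against 75.7 in AOC3-LN, and 170 in AOC11 against 26.3 in AOC11-LN. Both primary lines were above both lymph node lines, as for Csf1. The fall in AOC11-LN was 6.47-fold in FPKM (95% interval 6.06 to 6.90) and -2.69 on the log2 scale, the 68th lowest of the genes kept, whereas AOC3-LN differed from AOC3 by -0.56 and was not called. AOC3-LN exceeded AOC11-LN by 1.52 on the log2 scale. The ratio of Csf3 to Csf2 in FPKM was 16.8 in AOC3, 23.5 in AOC11 and 20.3 in AOC11-LN, and 4.12 in AOC3-LN. Csf3 exceeded Csf1 in AOC3-LN, where the ratio of Csf1 to Csf3 was 0.643; in the other lines this ratio lay between 1.24 and 3.09.

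**Figure D2:**
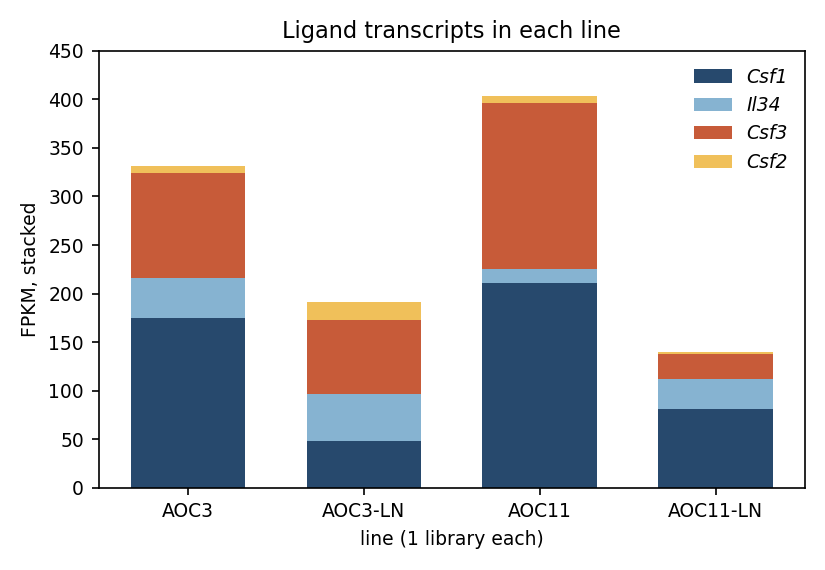
FPKM of the 4 ligand genes stacked for each line, with 1 library per line. The summed ligand FPKM was 331 in AOC3 and 403 in AOC11, and 191 in AOC3-LN and 139 in AOC11-LN; the Csf1 and Csf3 parts of the bars were smaller in both lymph node lines than in the primary line of the same mouse.

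The receptor genes were less abundant. Csf1r (ENSMUSG00000024621.16, chr18:61100598-61132149, plus strand), the kinase receptor of CSF1 and IL-34, stood at 0.995 FPKM in AOC3 against 0.435 in AOC3-LN, and 20.8 in AOC11 against 6.01 in AOC11-LN. These levels rested on about 152, 56, 3172 and 886 estimated fragments. Both AOC11 lines were above both AOC3 lines, which were each under 1 FPKM, so that Csf1r passed the filter on low values only through the AOC11 lines. AOC11 exceeded AOC3 by 20.9-fold in FPKM (95% interval 17.7 to 24.7) and AOC11-LN exceeded AOC3-LN by 13.8-fold (10.5 to 18.4). On the log2(FPKM + 1) scale, which understates differences of low values, AOC3 minus AOC11 was -3.45 (the 48th lowest of 14165 genes) and AOC3-LN minus AOC11-LN was -2.17. Within the mouse, Csf1r was 3.46-fold lower in AOC11-LN than in AOC11 (3.21 to 3.73; log2 difference -1.66) and 2.29-fold lower in AOC3-LN than in AOC3 (1.67 to 3.16; log2 difference -0.38, not called).

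In AOC11, Csf1r thus stood beside high Csf1, and the ratio of Csf1 to Csf1r in FPKM was 10.1 in AOC11 and 13.6 in AOC11-LN, against 175 in AOC3 and 112 in AOC3-LN. The 3′ end of Csf1r overlaps Hmgxb3 on the opposite strand by 873 bases. Hmgxb3 was measured at 17.8, 21.02, 19.7 and 9.53 FPKM in AOC3, AOC3-LN, AOC11 and AOC11-LN. As for Il34, the counting is not stated to use strand, so reads from the shared bases cannot be told apart. This limit matters most in AOC3 and AOC3-LN, where Csf1r was listed at 0.995 and 0.435 FPKM, and for the folds that use these values. Pdgfrb, a related receptor kinase encoded just upstream of Csf1r, was at or under 0.00565 FPKM in all 4 lines.

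Csf1r is a defining gene of macrophages, so the lines were checked against 16 macrophage and monocyte markers. The summed FPKM of the list ran from 11.4 to 20.8 and was lower in the AOC11 lines (13.1 in AOC11 and 11.4 in AOC11-LN) than in the AOC3 lines (20.8 in AOC3 and 18.5 in AOC3-LN). Cd14 and Cd68 made up most of each sum, and the other 14 markers summed to 0.521 FPKM in AOC3 against 1.20 in AOC3-LN, and 0.152 in AOC11 against 0.695 in AOC11-LN. Adgre1, C1qa, C1qb, C1qc and Tyrobp were at 0 in all 4 lines, the leukocyte gene Ptprc did not exceed 0.0640 FPKM, and the myeloid regulator Spi1 did not exceed 0.0188. Cd14 and Cd68 were the 2 of these markers that passed the filter on low values. In AOC11, Cd68 stood at 6.15 FPKM and Cd14 at 6.83, both under the 20.8 FPKM of Csf1r. The 12 neutrophil markers summed to between 1.17 and 3.21 FPKM, and the 10 epithelial markers, among them Epcam (416 to 518 FPKM) and Cdh1 (144 to 183), to between 3266 and 3777. Not all epithelial markers were level across the lines. Krt5 stood at 499, 275, 4.99 and 17.0 FPKM in AOC3, AOC3-LN, AOC11 and AOC11-LN, and Trp63 at 1.69, 2.10, 0.0848 and 0.841. In a bulk library, fewer cells of a type and less RNA per cell cannot be told apart.

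**Figure D3:**
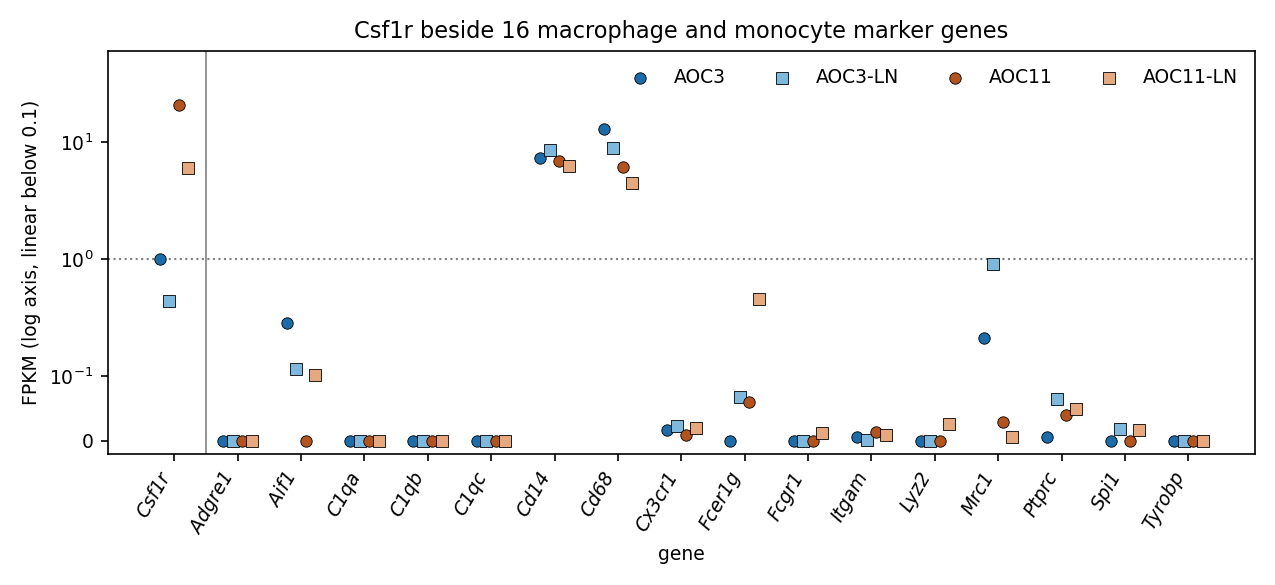
FPKM of Csf1r (left of the vertical line) and of 16 macrophage and monocyte marker genes in each line, 1 point per library, on a log axis that is linear below 0.1; the dotted line marks 1 FPKM. Csf1r reached 20.8 FPKM in AOC11, while 5 markers lay at 0 in all 4 lines and Cd14 and Cd68 were the 2 markers plotted over 1 FPKM.

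Csf2ra (ENSMUSG00000059326.7, chr19:61223957-61228429, minus strand), the CSF2-binding chain, stood at 2.67 FPKM in AOC3 against 4.66 in AOC3-LN, and 1.49 in AOC11 against 4.62 in AOC11-LN. Both lymph node lines were above both primary lines, and they differed from each other by less than counting error (FPKM ratio 1.01, 95% interval 0.853 to 1.19). The FPKM ratio of lymph node to primary line was 1.75 (1.45 to 2.12) in the first mouse and 3.11 (2.49 to 3.92) in the second. On the log2(FPKM + 1) scale these were 0.76 and 0.97, both short of the threshold; the second passed it under 4 alternatives, for example without quantile normalization (1.18).

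Csf2rb (ENSMUSG00000071713.6, chr15:78325752-78353847, plus strand), the signalling chain shared by the receptors for CSF2, IL-3 and IL-5, was listed at 0.00322 FPKM in AOC3, less than the worth of 1 fragment, and at 0 in AOC3-LN, AOC11 and AOC11-LN. A count of 0 allows up to 3 fragments, or between 0.0188 and 0.0224 FPKM in these lines. Csf2rb2, its near-identical neighbour on the chromosome that serves the IL-3 receptor in mice, was at or under 0.00365 FPKM, so both copies, between which reads can be shared, were near 0. Csf3r (ENSMUSG00000028859.14, chr4:126024550-126044440, plus strand) was listed at 0.00116 FPKM in AOC3, 0 in AOC3-LN and AOC11, and 0.0102 in AOC11-LN, the latter worth about 1 fragment. Both genes failed the filter of 1 FPKM in at least 1 line, and no fold was computed for them.

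Of the 8 genes, 6 passed the filter, and the number past the 2-fold threshold differed between comparisons. In AOC3-LN against AOC3, Csf2 was higher and Csf1 was lower, 2 of 6, where 5.53% of all genes kept were called (2.11% higher and 3.42% lower). In AOC11-LN against AOC11, Il34 was higher and Csf1, Csf2, Csf3 and Csf1r were lower, 5 of 6, where 8.11% of all genes were called (4.97% higher and 3.14% lower). Of these, the Il34 call depended on the normalization, as given above. In AOC3 against AOC11, Il34 was higher and Csf1r lower, 2 of 6 against 11.9% of all genes (6.25% higher and 5.69% lower). In AOC3-LN against AOC11-LN, Csf2 and Csf3 were higher and Csf1r lower, 3 of 6 against 16.3% (7.58% higher and 8.69% lower). The genes were chosen with these values known and Csf1r passed only through the AOC11 lines, so nothing is read from these shares. The median log2 difference of the 6 genes was -0.08, -1.54, -0.21 and 0.46 in these comparisons, and that of all genes kept was 0.02, -0.02, -0.02 and 0.03. The 4 comparisons share libraries and are not independent of each other.

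**Figure D4:**
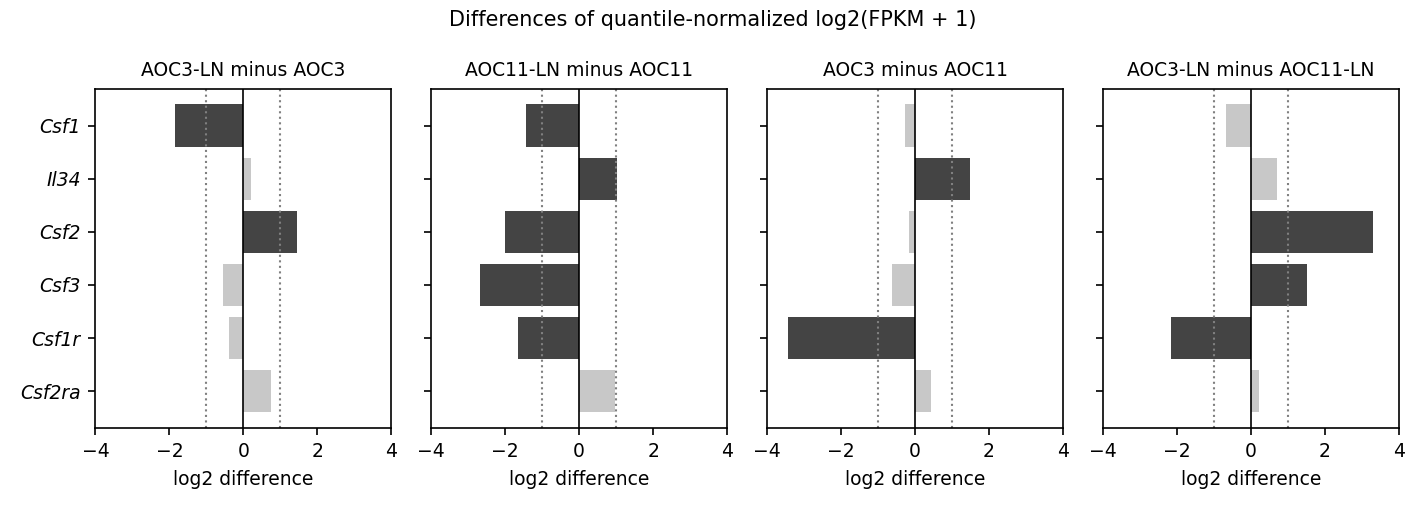
Differences of quantile-normalized log2(FPKM + 1) for the 6 genes that passed the filter, in the 4 comparisons between lines; dark bars are past the 2-fold threshold (dotted lines at -1 and 1) and there is no error bar because each line is 1 library. Csf1 was lower in both lymph node lines than in their primary lines (-1.84 and -1.43), and the Csf2 bars of these comparisons point in opposite directions (1.46 and -2.01).

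Other genes of the pathway were counted from lists written by hand with earlier results of these data known. Of 12 genes for receptor partners and kin, 5 passed the filter. Il3ra, the IL-3-binding partner of the common beta chain, was at 13.2 FPKM in AOC3 against 7.44 in AOC3-LN, and 3.72 in AOC11 against 15.4 in AOC11-LN. It was the 1 gene of the list called in AOC11-LN against AOC11 (1.75 on the log2 scale) and in AOC3 against AOC11 (1.56). Csf2ra and Il3ra were thus both present without the beta chain they signal through. Ptprz1 and Sdc1 encode proteins described as further binding partners of IL-34. Ptprz1 stood at 4.99, 9.78, 3.98 and 5.16 FPKM in AOC3, AOC3-LN, AOC11 and AOC11-LN, and Sdc1 at 257, 354, 192 and 175, higher in AOC3-LN than in AOC11-LN by 1.07 on the log2 scale. No gene of this list was called in AOC3-LN against AOC3, and its median difference was -0.10, -0.17, 0.33 and 0.57 in the order of the comparisons above. Over all genes kept, 5.53%, 8.11%, 11.9% and 16.3% were called in these comparisons, and with 5 genes nothing is read from 0 or 1 call.

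Of 12 related haematopoietic cytokines in the table, 6 passed the filter and none of these was called in AOC3-LN against AOC3 (median -0.09), where 5.53% of all genes were called. Lif, a cytokine of the IL-6 family, stood at 22.4, 26.3, 50.3 and 19.8 FPKM in AOC3, AOC3-LN, AOC11 and AOC11-LN. Tslp, an epithelial cytokine that acts on dendritic cells, stood at 53.4, 53.0, 125 and 28.8. Both had their highest level in AOC11, as did Csf1 and Csf3, and both were called lower in AOC11-LN against AOC11 (log2 differences -1.29 and -2.12) and in AOC3 against AOC11 (-1.07 and -1.19). They were the 2 genes of the list called in each of these comparisons (medians -0.10 and -0.75), 2 of 6 against 8.11% and 11.9% of all genes. Il15 was the 1 gene of 6 called in AOC3-LN against AOC11-LN (-1.76, list median 0.55), where 16.3% of all genes were called, with 0 FPKM in AOC3-LN and 2.74 in AOC11-LN. Il6 was at or under 0.0874 FPKM, and Il3 was not analysed here.

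Of 25 genes for signalling behind these receptors, 23 passed the filter. The number called was 0 in AOC3-LN against AOC3, 1 in AOC11-LN against AOC11, 2 in AOC3 against AOC11, and 10 (4 higher and 6 lower) in AOC3-LN against AOC11-LN, with medians of -0.16, 0.07, -0.14 and -0.44. The shares of all genes called were 5.53%, 8.11%, 11.9% and 16.3%. STAT5 is the main transcription factor activated by CSF2 and IL-3. Stat5a stood at 0.518 FPKM in AOC3 against 0.0731 in AOC3-LN, and 2.48 in AOC11 against 4.75 in AOC11-LN, and Stat5b at 2.53, 0.860, 9.62 and 6.998. Both were lower in the AOC3 lines than in the AOC11 lines at both sites, by -1.28 and -1.59 between the primary lines and by -2.30 and -1.97 between the lymph node lines on the log2 scale. Ptpn6, the phosphatase SHP-1 that limits CSF1R signalling, was at 6.16, 3.85, 8.23 and 19.5 FPKM, higher in AOC11-LN than in AOC11 by 1.14. It was lower in AOC3-LN than in AOC11-LN by -1.93, as was Cish, a further gene of the list, by -1.57. The remaining lower genes in AOC3-LN against AOC11-LN were Jak2 (-1.16) and Jak3 (-1.14). The 4 genes higher in AOC3-LN than in AOC11-LN were the feedback inhibitors Socs3 (1.58), Socs2 (1.13) and Socs1 (1.05) and the Ras activator Sos1 (1.14). Socs3 stood at 13.4, 14.4, 7.34 and 4.82 FPKM.

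Of 38 genes for cytokines, receptors and transcription factors known to induce colony-stimulating factors, 37 passed the filter. The number called was 4 (1 higher and 3 lower), 2 (both lower), 7 (3 higher and 4 lower) and 9 (4 higher and 5 lower) in the order of the comparisons above, with medians of -0.18, -0.16, 0.05 and -0.04, against shares of all genes called of 5.53%, 8.11%, 11.9% and 16.3%. Il1a, an inducer of all 3 classical factors, stood at 173 FPKM in AOC3 against 136 in AOC3-LN, and 69.1 in AOC11 against 11.3 in AOC11-LN, and was lower in AOC11-LN than in AOC11 by -2.53. Tnf stood at 2.23, 0.324, 1.97 and 0.437 FPKM, lower in both lymph node lines (-1.20 and -1.23), where it was under 1 FPKM. Of the 37 genes, 33 and 35 were not called in these comparisons. A link between the listed genes and the colony-stimulating factors was not tested. Nfkbia, the NF-kappa B inhibitor and target gene, fell from 96.9 FPKM in AOC3 to 34.5 in AOC3-LN (-1.47) and stood at 93.8 in AOC11 and 65.5 in AOC11-LN. Fosl1, an AP-1 subunit, was at 39.05, 84.1, 16.0 and 19.3 FPKM, higher in AOC3-LN than in AOC3 by 1.09, in the direction of Csf2. In AOC11-LN minus AOC11 the directions were opposite, at 0.28 for Fosl1 and -2.01 for Csf2. Between the primary lines the largest differences of the list were those of the TNF receptor gene Tnfrsf1b (1.47, higher in AOC3), the NF-kappa B subunit gene Relb (-1.46), Il1a (1.38) and Fosl1 (1.29). Between the lymph node lines they were those of Il1a (3.53), Fosl1 (2.11), the IL-17 receptor gene Il17rc (-1.98) and Relb (-1.72).

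All 20 listed regulators of the decay of these mRNAs passed the filter, and the number called was 1, 0, 3 and 2 in the order of the comparisons above, with medians of 0.06, 0.02, 0.09 and 0.19. The shares of all genes called were 5.53%, 8.11%, 11.9% and 16.3%, so the counts of this list were near the background. Zfp36, the decay factor for AU-rich elements, varied little, from 12.2 to 17.6 FPKM. Its relatives Zfp36l1 (119 FPKM in AOC3 against 36.4 in AOC11) and Zfp36l2 (71.1 against 30.4) were higher in AOC3 than in AOC11, by 1.73 and 1.30 on the log2 scale, and the AU-binding protein gene Hnrnpd was lower (82.1 against 252 FPKM, -1.57). Zc3h12a, which encodes the RNase Regnase-1, was lower in AOC3-LN (3.08 FPKM) than in AOC3 (9.55 FPKM) by -1.24.

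Of 21 genes listed as attractants of myeloid cells, 13 passed the filter. The list also holds the cytokine genes Il23a and Il33, which are not attractants in the strict sense. Il23a passed and was called lower in AOC11-LN against AOC11 (-1.005) and in AOC3 against AOC11 (-1.66). Within each mouse, most of the listed genes called were lower in the lymph node line. The list was written with earlier results of these data known, so nothing is read from this direction. In AOC3-LN against AOC3, 1 was higher and 6 were lower (median -0.93), and in AOC11-LN against AOC11, 2 were higher and 8 were lower (median -1.02), where 2.11% and 4.97% of all genes were higher and 3.42% and 3.14% were lower. Cxcl1, a neutrophil attractant, stood at 313 FPKM in AOC3 against 125 in AOC3-LN, and 357 in AOC11 against 77.8 in AOC11-LN, the same order of lines as Csf3, and Cxcl5 stood at 27.3, 6.15, 180 and 37.1. Ccl2, the monocyte attractant, was lower in AOC3-LN (0.483 FPKM) than in AOC3 (17.7 FPKM) by -3.60. Ppbp went in the direction of Csf2 in both mice, at 26.4, 256, 103 and 25.7 FPKM, with log2 differences from the primary line of 3.22 (AOC3-LN) and -1.98 (AOC11-LN). Between the primary lines and between the lymph node lines, the counts were 1 higher and 7 lower (median -1.60) and 2 higher and 5 lower (median -0.73), where 6.25% and 7.58% of all genes were higher and 5.69% and 8.69% were lower.

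Genes with the most similar pattern were found as those with the smallest Euclidean distance between centred log2 values over the 4 lines, among 11377 other protein-coding genes. With 4 lines many genes can follow 1 pattern, and the number within a distance of 0.5 was 67 for Il34 and 134 for Csf2ra, but 5 for Csf1, 1 each for Csf1r and Csf3, and 0 for Csf2. The distance was not scaled to the range of a gene over the lines. This log2 range was 1.71 for Il34 and 1.19 for Csf2ra, and between 2.10 (Csf1) and 3.82 (Csf1r) for the others. The numbers are therefore no measure of how rare a pattern is. Nearest to Csf1 were F3 (tissue factor, distance 0.24), Pdgfb (0.26) and Ppp1r12b (0.34). F3 stood at 26.3, 7.34, 29.99 and 11.4 FPKM in AOC3, AOC3-LN, AOC11 and AOC11-LN. Nearest to Csf3 were Ankrd1 (0.30), Nog (0.54) and Ccn1 (0.55), of which Ccn1 ran from 184 FPKM in AOC11-LN to 910 in AOC11. Nearest to Csf1r among these genes were Tceal8 (0.22), Slc23a3 (0.52) and Il18r1, a chain of the IL-18 receptor (0.60). Tceal8 stood at 1.40, 0.451, 20.4 and 6.61 FPKM. The genes least far from Csf2 were Cpeb2 (0.52), Flnc (0.63) and Ang2 (0.67). Nme4, Ifi202b and Slc6a9 lay nearest to Il34 (0.09 to 0.16), and Serpind1, Tgfbi and Pip5k1b nearest to Csf2ra (0.10 to 0.18).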

How the data were processed

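Poly(A) RNA of 4 cultured lines was sequenced with a stranded kit, 1 library per line. The authors trimmed reads with Trim Galore, mapped them to mm10 with TopHat2 and estimated the deposited FPKM values with Cufflinks on GENCODE M21; versions are not given in the sources used here. The methods name log2 transformation and quantile normalization, which the deposited FPKM values do not carry. The 8 genes and all lists were chosen with earlier results of these data known.

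All 34721 entries were used for log2(FPKM + 1) and quantile normalization (Python 3.11.15, numpy 2.4.6, pandas 2.3.3). Genes that reached 1 FPKM in any line were kept (14165, of which 11380 protein-coding), and a log2 difference above 1 or below -1 was called. Each comparison sets 1 library against 1 and so has no test. Fits over both mice (primary against lymph node lines with the mouse as a block, or the lines of 1 mouse against those of the other) were not made, since the 8 genes had been chosen on these values, and no p-value was computed. For 9528 genes with 1 transcript over 800 bases, between 71.6% and 74.8% of low values were whole multiples of 1 step to a tolerance of 0.1, which gave the fragments per library; the rest did not, so these numbers are estimates. Fragments of a gene were taken as FPKM times that number times its longest transcript less a fitted offset, with exact binomial 95% intervals (scipy 1.17.1). Where a gene has several transcripts, the fragments are approximate. The fit of fragments per library and the 2-fold calls were tested on simulated data, and the fragments and intervals of single genes were not.

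The text names the 8 genes, Csf2rb2, up to 4 genes per list and comparison with the largest differences, the 3 nearest patterns per gene and the 3 nearest protein-coding neighbours on either side of each ligand gene. Other list and marker genes, and genes overlapping the 8, are named as examples and were chosen after their values were seen. RefSeq promoter windows were at hand for Csf1, Csf2, Csf2ra and Csf3r. The Csf2 window lies upstream of the GENCODE start and was not used. Genes not reported here were left out of the macrophage marker list and of the search for similar patterns. Alternatives were another pseudocount, no quantile normalization, a common median, other filters on low values, a 1.5-fold threshold and normalization over protein-coding genes.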

Additional observations from a re-analysis of the deposited data

Results flagged for a closer look

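The difference between lymph node and primary line had opposite directions in the 2 mice for Csf2. On the log2(FPKM + 1) scale it was 1.46 in AOC3-LN minus AOC3 and -2.01 in AOC11-LN minus AOC11, both past the 2-fold threshold. The primary lines stood at 6.48 and 7.26 FPKM, and the lymph node lines at 18.4 and 1.30. With 1 library per line the difference between the mice was not tested.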

How the results depend on the processing

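The number of the 6 genes past the threshold stayed within 1.5 times its value under all 7 alternatives in 3 of the 4 comparisons. In AOC3-LN minus AOC11-LN, a 1.5-fold threshold called 5 in place of 3, by construction of the wider threshold. In AOC11-LN minus AOC11, 6 in place of 5 were called with a pseudocount of 0.1, at 1.5-fold, and with protein-coding genes only, because Csf2ra then passed. Without quantile normalization and with a common median the count stayed at 5, but Il34 (0.996 and 0.984) was lost and Csf2ra (1.18 and 1.16) was gained. Of 140 recomputed differences of single genes, 127 moved by less than counting error allows, 13 moved by more, and 0 reversed. The 127 include all values under the other filters on low values, which by construction do not change the difference of a gene. With a pseudocount of 0.1 the difference of Csf1r in AOC3 minus AOC11 was -4.29 and that of Csf2 in AOC3-LN minus AOC11-LN was 4.10.

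Over all genes, the 783 calls of AOC3-LN minus AOC3 became 1443 with a pseudocount of 0.1, 1948 at 1.5-fold and 453 with protein-coding genes only. The 1149 calls of AOC11-LN minus AOC11 became 2074, 3482 and 712. The 1692 calls of AOC3 minus AOC11 became 2636 with a pseudocount of 0.1 and 4086 at 1.5-fold, and the 2304 of AOC3-LN minus AOC11-LN became 5095 at 1.5-fold. Without quantile normalization the median of all genes in AOC3-LN minus AOC11-LN moved from 0.03 to -0.10, and the share of calls that were higher from 46.6% to 34.0%. No paired analysis was possible because each comparison sets 1 library against 1, and for the same reason no library could be left out of a comparison. A fit over both mice with the mouse as a block would leave 1 residual degree of freedom and was not run. Depth limits Csf2 in AOC11-LN (27 estimated fragments) and Csf1r in AOC3-LN (56) most.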

Other observations

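Genes beside the ligand genes on the chromosome were counted in the same way. Of 24 neighbours, 3 protein-coding genes on either side of each ligand gene, 16 passed the filter on low values. The number called was 0 in AOC3-LN against AOC3, 1 in AOC11-LN against AOC11, 2 in AOC3 against AOC11 and 5 in AOC3-LN against AOC11-LN, where 5.53%, 8.11%, 11.9% and 16.3% of all genes were called. Beside Csf3, Med24 (962 bases away) stood at 26.3, 28.7, 50.2 and 44.3 FPKM in AOC3, AOC3-LN, AOC11 and AOC11-LN, and Psmd3, a proteasome subunit, at 169, 202, 195 and 189, while Csf3 differed 6.47-fold between the AOC11 lines. Mtss1l, 429 bases from Il34, was highest in AOC11-LN (7.18 FPKM) and lowest in AOC3 (1.34 FPKM). Ahcyl1, the nearest neighbour of Csf1 among those that passed, ran from 56.3 to 92.8 FPKM and was lower in each lymph node line than in its primary line, by -0.57 and -0.43 on the log2 scale, against -1.84 and -1.43 for Csf1. Slc22a4, an organic cation transporter gene near Csf2, was higher in AOC3-LN (11.7 FPKM) than in AOC11-LN (2.95 FPKM) by 1.91.

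Postn was the 1 fibroblast marker of 10 that passed the filter, at 0.0593, 0.00696, 0.757 and 3.54 FPKM in AOC3, AOC3-LN, AOC11 and AOC11-LN. The summed fibroblast markers ran from 0.305 to 4.76 FPKM, with the highest sum in AOC11-LN, where Csf1, Csf2 and Csf3 were each lower than in AOC11. The 6 endothelial and 5 mast cell and basophil markers did not pass, and 1 of the 8 T cell markers did (Trac).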
